A study of Mus musculus with 14 samples.

Results

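Imprinted genes are transcribed mainly from 1 of the 2 parental copies. The members described here are 10 genes named by symbol, namely *Meg3*, *Rian*, *Mirg*, *Dlk1*, *Igf2*, *H19*, *Peg3*, *Plagl1*, *Ndn* and *Snrpn*, and they were looked up among the 31054 genes of the count files. A row was found for 9 of the 10, whereas *Rian* matched no row by symbol or identifier and is not analysed here. Their levels were followed across the cell classes of 14 single-cell RNA sequencing libraries. Control embryos were Atoh1Cre/+; Rosa lsl-tdTomato/+, so that they already carried 1 inactive *Atoh1* allele, and mutant embryos (called Atoh1S193A/- here) were Atoh1Cre/S193A; Rosa lsl-tdTomato/+, with a hypomorphic point mutation on the other allele. All mice were on a C57BL/6J background. TdTomato-positive, DAPI-negative hindbrain cells were sorted from 3 control and 3 Atoh1S193A/- embryos at E14.5 and at E18.5, with 1 embryo per library, and from the micro-dissected pontine nuclei (PN) of pooled control pups at P5, with 2 libraries. Since Cre is expressed from the *Atoh1* locus, the label marks every cell whose ancestors used that locus, and it does not mark PN cells alone.

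Imprinted genes lie in clusters in which a differentially methylated region sets which parental copy is used. In the Dlk1-Meg3 domain of chromosome 12, the protein-coding genes *Dlk1* and *Rtl1* are expressed from the paternal copy, and a long series of noncoding RNAs (*Meg3*, *Rian* and *Mirg*) from the maternal copy, including hosts of small nucleolar RNAs and microRNAs. On chromosome 7, *Igf2*, a paternally expressed growth factor, neighbors the maternally expressed noncoding RNA *H19*. *Peg3* and *Plagl1* encode paternally expressed zinc-finger proteins, *Ndn* encodes a protein of the MAGE family that is abundant in postmitotic neurons, and *Snrpn* encodes a splicing-associated protein of the Prader-Willi region. UMIs do not tell the parental copies apart, so allelic use was not measured here.

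Of 104 genes that GENCODE M21 (GRCm38) places between *Dlk1* (chr12:109452823-109463336, plus strand) and *Mirg* (chr12:109729764-109749460, plus strand), 93 were small RNA genes, and 8 of the 11 longer genes had a row in the files. *Meg3* lies between them at chr12:109541001-109571726, and the annotated span of *Rian* is chr12:109603940-109661716, both on the plus strand. Mature sequences from RefSeq (GRCm38.p6) that fall inside the members numbered 3 for *Meg3*, 6 for *Rian*, 26 for *Mirg* and 2 for *H19*. Among those of *Mirg*, 2 shared a seed, and the others had a seed of their own. The mature microRNAs themselves were not measured by these libraries, and they are shown because they are the products that the host transcripts carry. The first pair below is the one with the shared seed, the following 3 are further products of *Mirg*, the next comes from *Meg3* and the last pair from *H19*, with the seed (bases 2 to 8) in capitals.
miR-453: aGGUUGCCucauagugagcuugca
miR-496a-5p: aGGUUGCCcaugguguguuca
miR-382-5p: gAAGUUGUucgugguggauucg
miR-134-5p: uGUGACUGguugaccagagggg
miR-410-3p: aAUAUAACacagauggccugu
miR-770-5p: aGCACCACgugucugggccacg
miR-675-5p: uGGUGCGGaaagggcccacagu
miR-675-3p: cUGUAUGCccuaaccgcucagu

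The start of *Meg3* is shown because its level had the largest fold between progenitor-like and differentiated PN cells, and that of *Peg3* because it is the only other member whose window held the same motif. The motif searched was the palindromic cAMP response element TGACGTCA, which reads the same on both strands and is in capitals. It was found in 1.79% of 32851 mouse promoter windows of 300 bases. The *Meg3* window (chr12:109540746-109541045, plus strand, GRCm38.p6) holds it 57 bases before the start site of the window, and a second window listed for *Meg3* (chr12:109545148-109545447) does not hold it. That start site follows base 109540995 and lies slightly before the gene start given above. The *Peg3* sequence covers the 250 bases before the start on the minus strand (chr7:6730420-6730669), with the motif 178 bases before it. The E-box CAGCTG, found in 16.3% of all windows, was in no window of a member. *H19* was not among the promoter entries. A match in these letters is a description, not a binding site.
Meg3 promoter: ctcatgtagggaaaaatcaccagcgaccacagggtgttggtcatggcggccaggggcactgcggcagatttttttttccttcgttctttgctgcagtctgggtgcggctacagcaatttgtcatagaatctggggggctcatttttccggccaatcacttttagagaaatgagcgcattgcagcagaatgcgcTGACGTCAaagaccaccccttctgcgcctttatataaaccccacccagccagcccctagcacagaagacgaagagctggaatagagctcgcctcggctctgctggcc
Peg3 promoter: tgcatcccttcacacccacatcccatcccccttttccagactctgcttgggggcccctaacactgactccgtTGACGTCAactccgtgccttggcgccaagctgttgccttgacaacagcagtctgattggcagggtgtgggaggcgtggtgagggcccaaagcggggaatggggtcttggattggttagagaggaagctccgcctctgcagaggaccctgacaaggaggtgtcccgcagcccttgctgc

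The 14 libraries held 150188 barcodes and 108239001 to 236964126 UMIs each, and 80250 cells were kept. Any 2 libraries shared between 13 and 67 barcodes, at most 0.624% of the smaller library. *Atoh1* itself was 83.0 ± 46.4 CPM (UMIs of the gene per 1000000 UMIs summed) in control and 110.1 ± 30.0 CPM in Atoh1S193A/- libraries at E14.5 (SD, n = 3 each). This level cannot check the genotype, since a point mutation leaves the transcript countable. Cells were clustered without the members or other imprinted genes and were named "-like" from marker genes. PN-like cells (*Pax6* with Hoxb genes) at E14.5 were divided into progenitor-like, intermediate progenitor-like, migrating neuron-1-like, migrating neuron-2-like and differentiated neuron-like states. Outside them, clusters with *Pax6* and little Hoxb, as in the granule cell lineage, were called by what defined them: cycling (*Mki67*), *Mapt*-low and *Mapt*-high *Pax6*+ Hoxb-low cells. "Other neurons" are the remaining *Mapt*-expressing clusters. Vascular or meningeal-like and microglia-like cells were also present, although a sort for the *Atoh1* lineage should remove them, and whether they carried the label was not tested. All levels are CPM of UMIs summed per library and class, and they are compared between classes or samples and not between genes, since 3' UMIs are not scaled for capture of different transcripts. Because classes were cut from the same cells, differences between classes are descriptions without a test.

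*Meg3*, a nuclear noncoding RNA, was lowest in progenitor-like and intermediate progenitor-like PN cells and highest in differentiated neurons. In control libraries 1, 2 and 3 at E14.5 it was 72.6, 113 and 102 CPM in progenitor-like cells and 53.2, 80.6 and 87.6 CPM in intermediate progenitor-like cells. It was 106, 246 and 119 CPM in migrating neuron-1-like, 388, 494 and 526 CPM in migrating neuron-2-like and 1661, 1629 and 1817 CPM in differentiated neuron-like cells. The progenitor-like range overlapped those of both following states, intermediate progenitor-like cells stayed below migrating neuron-1-like cells, and each later step was higher without overlap. Within a library, the differentiated level was 18.4 ± 4.26 times the progenitor-like level (SD, n = 3), and in Atoh1S193A/- libraries it was 22.8 ± 7.58 times.

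In the same order, the summed level of the 8 postmitotic neuron markers was 391, 616 and 597 CPM in progenitor-like and 13535, 14590.0 and 14421 CPM in differentiated neuron-like cells, and that of the 10 dividing-progenitor markers 10537, 10559 and 9816 CPM against 246, 189 and 218 CPM. The states were cut and named from transcripts of these same cells, so the course of the lists does not check the names. At E18.5 *Meg3* reached 5636, 5191 and 5574 CPM in control PN-like differentiated neurons, and at P5 6945 and 6903 CPM.

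**Figure D1:**
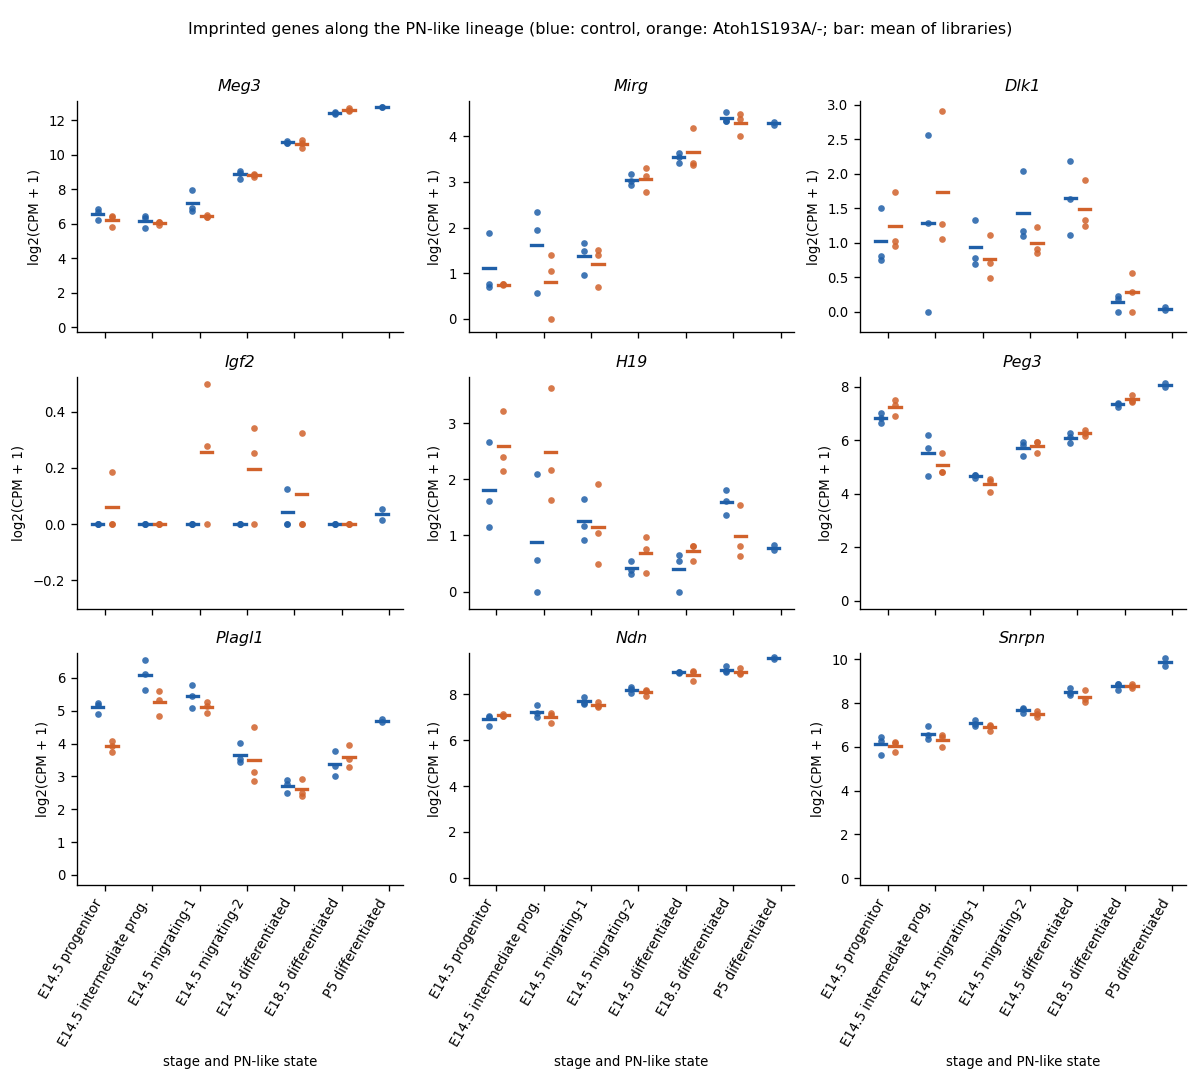
Level of each member on the vertical axis, as log2(CPM + 1), in the PN-like states at E14.5 and in PN-like differentiated neurons at E18.5 and P5, with 1 point per library (blue, control, and orange, Atoh1S193A/-) and a bar at the mean of libraries. Meg3 has a mean of 95.8 CPM in control progenitor-like and 1702 CPM in control differentiated neuron-like cells, and Plagl1 one of 33.7 and 5.62 CPM.

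*Mirg*, the microRNA host at the far end of the domain, had far fewer UMIs. It was also higher in differentiated than in progenitor-like cells, but rose less than *Meg3* at the last step. It was 0.692, 2.66 and 0.612 CPM in control progenitor-like cells, which rests on 9 UMIs in all, and 9.70, 11.5 and 10.8 CPM in differentiated neuron-like cells, with 229 UMIs. In migrating neuron-2-like cells it was already 7.06, 6.59 and 7.96 CPM, below each differentiated value. The levels of the 3 earlier states, shown in the plot of the PN-like states, rest on few UMIs and overlapped. At E18.5 it was 19.2, 22.3 and 19.2 CPM and at P5 18.1 and 18.8 CPM in PN-like differentiated neurons.

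No level can be given for *Rian*, but 2 unnamed long noncoding RNAs of the same strand have rows in that stretch. *Gm26945* (chr12:109640341-109642351) lies inside the *Rian* span, and *B830012L14Rik* (chr12:109695586-109702587) lies 33870 bases past its end and 27177 bases before *Mirg*. In control libraries at E14.5 *Gm26945* went from 0.127 CPM in progenitor-like to 2.59 ± 1.12 CPM in differentiated neuron-like cells (SD, n = 3), and *B830012L14Rik* from 0.357 ± 0.346 to 4.61 ± 1.36 CPM. The first of these values rests on 1 UMI in all, below the floor, against 62 UMIs of *Gm26945* in differentiated neuron-like cells. In PN-like differentiated neurons at E18.5 they were 7.09 ± 0.475 and 10.8 ± 0.180 CPM. Both were higher in the differentiated cells, as *Meg3* and *Mirg* were, and the protein-coding neighbor *Rtl1* was at 0.536 ± 0.212 CPM in differentiated neuron-like cells at E14.5.

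Outside the PN lineage, the highest *Meg3* level of a named class at E14.5 was in other neurons, at 3997 ± 294 CPM (SD, n = 3). Next came inhibitory neuron-like cells at 3787 ± 606 CPM (SD, n = 3), whose range overlapped that of other neurons. Vascular or meningeal-like cells at 1861 ± 301 CPM (SD, n = 2) and PN differentiated neuron-like cells at 1702 ± 101 CPM (SD, n = 3) also overlapped each other, and both lay below the inhibitory cells. Choroid plexus-like cells (449 ± 227 CPM), glia-like cells (440.4 ± 108 CPM) and *Mapt*-high *Pax6*+ Hoxb-low neurons (431 ± 32.7 CPM) formed a middle group with overlapping ranges. Granule-lineage and rhombic lip classes with few neuronal transcripts were low, at 258 ± 103 CPM in cycling and 164 ± 56.7 CPM in *Mapt*-low *Pax6*+ Hoxb-low cells. At this stage the *Mapt*-high cells thus overlapped glia-like cells and lay below PN differentiated neuron-like cells.

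At E18.5 control other neurons had 11981 ± 358 CPM (SD, n = 3), PN-like differentiated neurons 5467 ± 241 CPM (SD, n = 3) and *Mapt*-high *Pax6*+ Hoxb-low neurons 1626 ± 195 CPM (SD, n = 3). Unipolar brush cell-like neurons were at 1472 ± 118 CPM (SD, n = 3), overlapping the *Mapt*-high cells, and cycling cells at 144 ± 13.8 CPM (SD, n = 3). At P5 inhibitory neuron-like cells had 9256 and 7300.1 CPM and the 6 PN subtypes lower levels (at most 7154 CPM), while other neurons stood apart, at 493 and 327 CPM in the 2 libraries, far below the PN-like neurons. This class was a single cluster whose 8 postmitotic neuron markers summed to 18490.5 and 18749 CPM, and *Ndn* (897 and 1010.0 CPM) and *Snrpn* (1166 and 1479 CPM) were not lower there than in PN-like differentiated neurons (737 and 799 CPM and 829 and 1058 CPM). Hemoglobin genes were its leading genes, and the 8 erythroid markers summed to 3546 and 4.39 CPM in replicates 1 and 2, and their part in the low *Meg3* level was not tested. *Malat1*, another nuclear noncoding RNA, was 1580.3 and 548 CPM there, against 12214 ± 2735 CPM in PN-like differentiated neurons, and its part was not tested either.

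**Figure D2:**
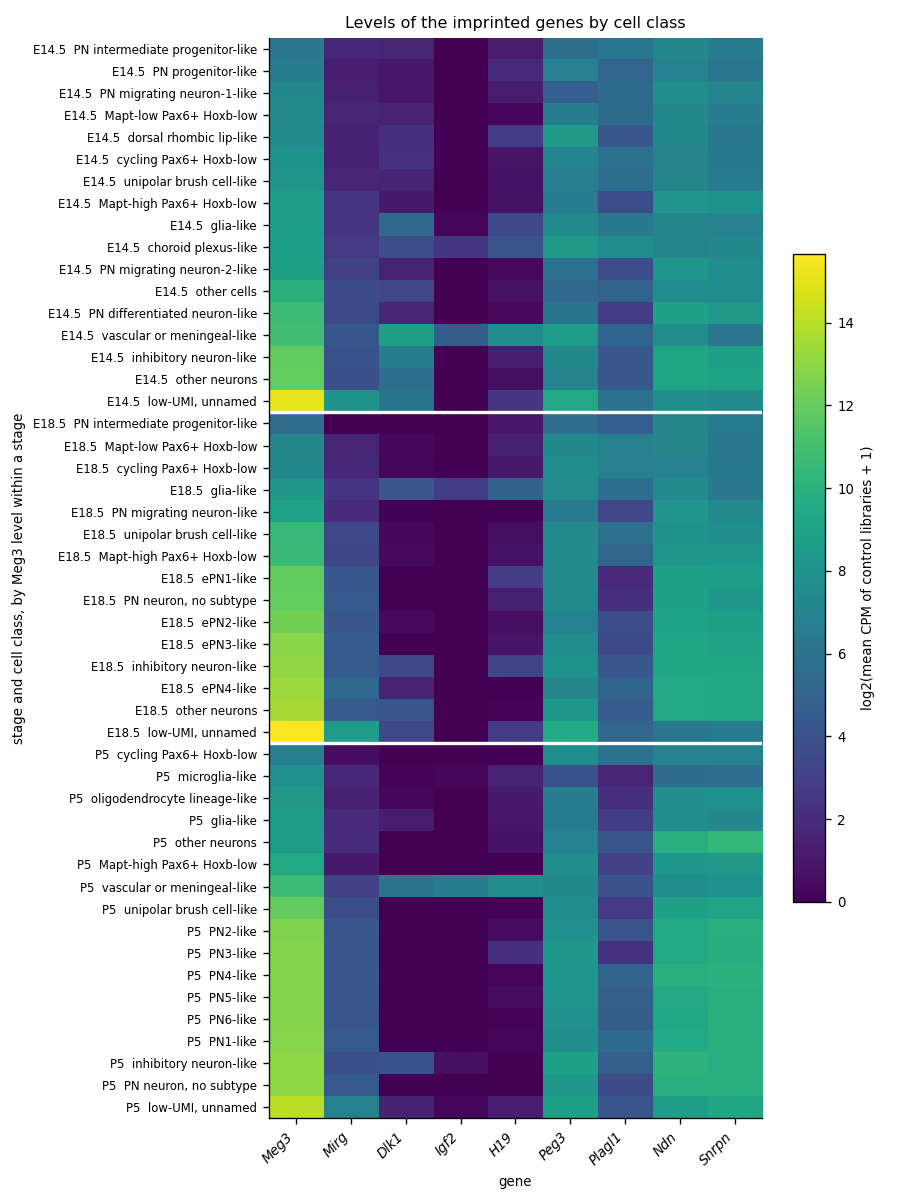
Heat map of log2(mean CPM + 1) of control libraries, with the members as columns and the classes of each stage as rows in order of Meg3, stages being parted by white lines. Meg3 has a mean of 3997 CPM in other neurons at E14.5 and 409.9 CPM in other neurons at P5, and Igf2 and H19 are brightest in vascular or meningeal-like cells at both of these stages.

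Clusters of few UMIs per cell had the highest *Meg3* levels of all. The unnamed low-UMI cluster at E14.5 had 34106 and 36068 CPM in the 2 control libraries with enough cells, with a median of 1862 and 1937 UMIs per cell. At E18.5 the values were 56763, 50836 and 48275 CPM. At P5 the shallower of 2 such clusters had 40250.0 and 48739 CPM, and the other, with a median of 5638 and 5800.5 UMIs per cell, 4457 and 3332 CPM, which is below PN-like neurons. *Malat1* was 81908 and 66851 CPM in the E14.5 cluster and *Mirg* 231 and 300.1 CPM, and the protein-coding *Peg3* was 729 and 659 CPM, against at most 480.4 CPM in a control library of any named class at that stage. *Ndn* (184 and 234 CPM) and *Snrpn* (166 and 190.3 CPM), which are protein-coding as well, were not above their levels in neurons. These barcodes were 0.833% of control cells at E14.5 and 5.09% at P5, and their part in the levels over all cells was not tested.

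**Figure D3:**
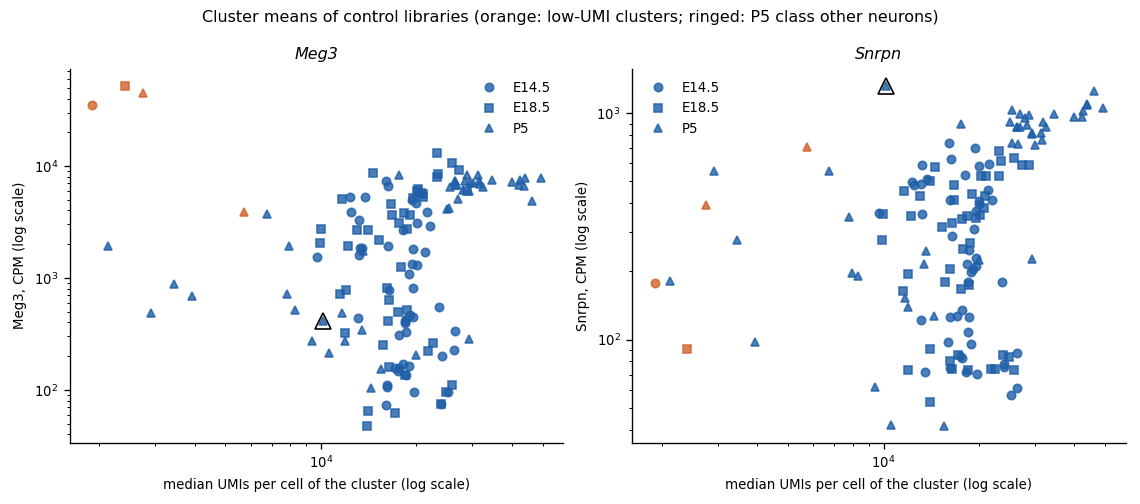
Mean level of Meg3 and of Snrpn over control libraries (CPM, log axis) against the median UMIs per cell (log axis), with 1 point per cluster, stages by symbol, low-UMI clusters in orange and the P5 other neurons ringed. Of the 4 low-UMI clusters, 3 lie above all others for Meg3, and the ringed cluster is low for Meg3, at 409.9 CPM, and high for Snrpn, at 1323 CPM.

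*Dlk1*, a membrane protein related to Notch ligands, did not follow *Meg3*. It was 0.692, 0.760 and 1.84 CPM in PN progenitor-like and 1.16, 3.57 and 2.10 CPM in PN differentiated neuron-like cells of control E14.5 libraries, ranges that overlapped. Its highest level was in vascular or meningeal-like cells, at 290.4 and 662 CPM in the 2 libraries with at least 10 of them, followed by inhibitory neuron-like cells at 99.4 ± 52.1 CPM (SD, n = 3) and other neurons at 48.9 ± 6.12 CPM (SD, n = 3). Because other neurons were common, they held 75.8 ± 10.3% of all control *Dlk1* UMIs at E14.5 (SD, n = 3). A single cluster led by *C1ql1*, *Sst*, *Dlk1* and *Onecut2* held 42.5 ± 11.6% of them with 3.06% of the cells. At E18.5 PN-like differentiated neurons had 0, 0.173 and 0.139 CPM, and at P5 0.0445 and 0.0228 CPM. At P5 72.7 ± 2.92% of the few UMIs came from vascular or meningeal-like cells (SD, n = 2).

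*Igf2* UMIs were few and came mostly from vascular or meningeal-like, choroid plexus-like and glia-like cells. At E14.5 it had 39 UMIs over the 3 control libraries, of which 19 were in vascular or meningeal-like and 16 in choroid plexus-like cells. The level was 18.998 and 29.1 CPM in vascular or meningeal-like cells and 2.78, 2.85 and 8.13 CPM in choroid plexus-like cells. At P5 vascular or meningeal-like cells had 82.2 and 112 CPM and held 95.5% of the UMIs while being 1.12% of the cells. The 6 meningeal fibroblast markers summed to 7124 and 6870.4 CPM in that class at E14.5 and 6219 and 7152 CPM at P5. At E18.5, where no vascular or meningeal-like class was named, 10 of 12 UMIs were in glia-like cells. Fibroblast markers were also found in that class, as given below for *H19*, and their part was not tested. In PN-like cells at that stage there were 0 UMIs of *Igf2*, which allows levels of up to 0.181 to 0.384 CPM per library.

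*H19* shared the vascular or meningeal maximum, at 228 and 156 CPM at E14.5 and 151 and 280.4 CPM at P5. In the PN-like cells of the 3 control libraries at E14.5, where *Igf2* had 1 UMI in all, *H19* was 2.08, 5.32 and 1.22 CPM in control PN progenitor-like cells (19 UMIs) and 0, 0.563 and 0.456 CPM in differentiated neuron-like cells (8 UMIs). The progenitor-like values were the higher ones in each library, with counts too low for a fold. At E18.5 control PN-like differentiated neurons had 1.57, 2.07 and 2.50 CPM, and 39 of their 58 UMIs were in ePN1-like neurons. With each cell thinned to 3000 UMIs the values were 1.23, 4.69 and 6.16 CPM, the first of them from 1 UMI. The level was 2.35, 7.90 and 8.95 CPM in ePN1-like, 0.596, 0.699 and 0.436 CPM in ePN2-like and 2.11, 0 and 0.541 CPM in ePN3-like neurons. At P5 the PN3-like neurons, which share the markers Kctd12, Prox1, Meis2 and Zbtb20 with ePN1, held 4.27 and 2.69 CPM, against at most 0.865 CPM in any library of the other 5 subtypes. *H19* UMIs were thus concentrated in 1 subtype at each stage, and 123 of 164 in PN-like differentiated neurons at P5 came from PN3-like cells. In the E18.5 glia-like class, which was 6.33, 48.4 and 24.6 CPM for *H19*, the fibroblast markers were 98.1, 1584 and 349 CPM, and their part in this level was not tested.

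*Peg3* had a minimum in the early migrating PN state. It was 113, 130.0 and 100.3 CPM in progenitor-like and 24.9, 22.7 and 25.3 CPM in migrating neuron-1-like cells of control E14.5 libraries, and it was 56.3, 41.3 and 59.4 CPM in migrating neuron-2-like and 76.9, 58.2 and 68.9 CPM in the differentiated state. In every control library the progenitor-like level was above that of the differentiated neuron-like cells, by 1.72 ± 0.443 times (SD, n = 3). Dorsal rhombic lip-like (348 ± 54.3 CPM (SD, n = 3)), choroid plexus-like (335 ± 52.8 CPM (SD, n = 3)) and vascular or meningeal-like cells (388 ± 131 CPM (SD, n = 2)) had the highest levels of the named classes, with overlapping ranges. At P5 PN-like differentiated neurons had 283 and 255 CPM, and microglia-like cells 24.2 and 5.28 CPM.

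*Plagl1* was higher in the early PN states and lower in the late ones. It was 36.7, 28.9 and 35.5 CPM in progenitor-like and 69.0, 92.1 and 48.3 CPM in intermediate progenitor-like cells of control libraries, where *Atoh1* was also highest, at 585 ± 144 CPM. It was 43.0, 53.9 and 32.8 CPM in migrating neuron-1-like cells and then only 10.5, 15.1 and 9.94 CPM in migrating neuron-2-like and 5.82, 6.38 and 4.65 CPM in differentiated neuron-like cells. Progenitor-like and migrating neuron-1-like cells overlapped, as did intermediate progenitor-like and migrating neuron-1-like cells, whereas the last 2 states were each lower without overlap. The progenitor-like level was 6.15 ± 1.56 times the differentiated level in control and 2.82 ± 0.606 times in Atoh1S193A/- libraries (SD, n = 3 each). The granule lineage showed the same order at E18.5, with 119 ± 4.81 CPM (SD, n = 3) in *Mapt*-low, 111 ± 12.6 CPM (SD, n = 3) in cycling and 35.0 ± 5.82 CPM (SD, n = 3) in *Mapt*-high *Pax6*+ Hoxb-low cells, of which the first pair overlapped. The 2 dividing or immature classes held 46.1% and 30.7% (cycling and *Mapt*-low) of all control *Plagl1* UMIs at that stage. The highest level of any class at E14.5 was in choroid plexus-like cells, at 200.4, 260.2 and 131 CPM. Its promoter window (chr10:13090582-13090881, plus strand, GRCm38.p6) had 26 CpGs and 70.7% GC, against medians of 7 and 52.7% over all windows.

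*Plagl1* differed between PN subtypes at P5. It was 42.0 and 45.2 CPM in PN1-like and 34.2 and 26.8 CPM in PN4-like neurons. PN5-like (25.0 and 26.7 CPM) and PN6-like neurons (26.3 and 21.7 CPM) had intermediate and overlapping levels, followed by PN2-like neurons at 15.9 and 16.3 CPM. PN3-like neurons, those with the most *H19*, had the least *Plagl1*, at 4.83 and 2.83 CPM. At E18.5 ePN1-like neurons were likewise the lowest of the subtypes compared, at 0.784, 3.51 and 3.65 CPM, against 16.7, 6.29 and 14.8 CPM in ePN2-like and 12.1, 13.4 and 6.49 CPM in ePN3-like neurons. The ePN4-like neurons, which had at least 10 cells in only 1 control library, were left out. *Meg3*, in contrast, was nearly even over the 6 subtypes at P5, with means between 6431 CPM in PN2-like and 7089.9 CPM in PN1-like neurons. At E18.5 it was not even, with 3864, 3645 and 3988 CPM in ePN1-like, 5254, 5205 and 5347 CPM in ePN2-like and 7969, 7117 and 7115 CPM in ePN3-like neurons, which did not overlap.

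*Ndn* (chr7:62346569-62350262, plus strand) and *Snrpn* (chr7:59982495-60140219, minus strand) were both highest in neurons. In control progenitor-like cells at E14.5 *Ndn* was 98.9, 134 and 129 CPM and *Snrpn* 49.1, 77.1 and 85.7 CPM. In differentiated neuron-like cells *Ndn* was 500.3, 491 and 510.4 CPM and *Snrpn* 354, 326 and 405 CPM, so that each was higher in every library, by 4.23 ± 0.732 and 5.39 ± 1.59 times (SD, n = 3). The lowest levels were in microglia-like cells at P5, at 63.0 and 26.6 CPM for *Ndn* and 60.6 and 34.5 CPM for *Snrpn*. Over 47 stage-specific control classes, the mean log2(CPM + 1) profiles of these 2 genes had a Pearson correlation of 0.949, the highest of any pair of members. That of *Meg3* with *Mirg* was 0.921 and that of *Igf2* with *H19* 0.847, whereas *Meg3* and *Dlk1*, from the same domain, gave 0.166. The classes share libraries and depth, and these values are descriptions. The low-UMI unnamed class of each stage, where *Meg3* was highest, is among the 47, and the correlations without it were not tested. *Snurf*, which overlaps *Snrpn* on the same transcript, is listed at 0 UMIs in every library, so the split of reads between these 2 genes is uncertain.

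With age, *Dlk1* fell and *Plagl1* rose over all cells. Within PN neurons *Meg3* and *Peg3* rose at both steps, and *Mirg* only from E14.5 to E18.5. *Plagl1* rose there at both steps as well, although several alternatives did not call the first rise. In all kept cells of control embryos, 5 of 7 members tested passed between E14.5 and E18.5 (edgeR quasi-likelihood test, FDR under 0.05 and absolute log2 change over 0.25), where 51.5% of all genes tested passed, 26.4% upward. *Dlk1* fell from 24.1, 42.7 and 24.9 to 0.662, 0.718 and 1.01 normalized CPM (log2 change -5.26 ± 0.31 (SE), FDR = 1.93e-04). *Plagl1* rose from 29.8, 25.0 and 30.4 to 71.5, 79.0 and 57.1 normalized CPM (log2 change 1.28 ± 0.14 (SE), FDR = 7.11e-04), and *Peg3* rose as well (log2 change 0.48 ± 0.12 (SE), FDR = 0.0135). *Ndn* (-0.84 ± 0.21, FDR = 0.0138) and *Snrpn* (-0.78 ± 0.20, FDR = 0.0141) fell on the same scale. *Meg3* (-0.55 ± 0.29, FDR = 0.149) and *Mirg* (-0.34 ± 0.26, FDR = 0.298) did not pass. *Meg3* did pass without E18.5 control replicate 3 (-0.86, FDR = 0.0254) and with a mitochondrial limit of 10% (-0.79, FDR = 0.0137), and *Snrpn* did not without E14.5 control replicate 3 (FDR = 0.0511). The cells sampled were not the same mix at the 2 stages, since other neurons were 46.0 ± 15.6% of control cells at E14.5 and 1.81 ± 0.259% at E18.5. In sums over all cells, fewer cells of a type and less RNA per cell cannot be told apart.

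Within PN-like differentiated neurons of control embryos, 4 of 6 members tested passed between E14.5 and E18.5, all upward, where 56.4% of genes passed in either direction and 28.8% upward. *Meg3* rose from 1687, 1730.2 and 1938 to 5377, 5068 and 5462 normalized CPM (log2 change 1.57 ± 0.09 (SE), FDR = 1.03e-06), a 2.97-fold difference without overlap. *Peg3* (1.14 ± 0.10, FDR = 1.4e-05) and *Mirg* (0.80 ± 0.15, FDR = 0.00103) rose too. *Plagl1* rose from 5.91, 6.78 and 4.96 to 11.999, 6.92 and 8.83 normalized CPM (0.68 ± 0.24, FDR = 0.0321), a call kept under 5 of 10 alternatives. DESeq2 did not make it, nor did the fits without control replicate 1 or 3 at E14.5 or at E18.5, where the FDR was up to 0.132. The thinned means of *Plagl1*, given in the closing section, were nearly the same at these stages. *Ndn* (0.01 ± 0.10, FDR = 0.955) and *Snrpn* (0.16 ± 0.11, FDR = 0.266), which fell over all cells, had values near 0 here. *Dlk1* and *H19* had a UMI in too few cells to pass the limit on low genes, and without that limit both were called, *Dlk1* lower at -4.27 (FDR = 2.85e-08, 48 against 3 UMIs) and *H19* higher at 2.35 (FDR = 2.62e-04, 8 against 58 UMIs). Each of them has a library at 0, so that the size of these changes depends on the prior count. The median change of all genes was 0.01.

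From E18.5 to P5, 5 of 6 members tested rose in PN-like differentiated neurons, where 61.9% of genes passed in either direction and 30.9% upward. The P5 libraries differ from the E18.5 ones in stage, dissection and pooling of pups, which cannot be told apart. *Plagl1* rose from 12.1, 7.05 and 9.02 to 26.3 and 25.2 normalized CPM (log2 change 1.45 ± 0.15 (SE), FDR = 1.67e-06), and *Snrpn* from 447, 378 and 464 to 848 and 1109.8 normalized CPM (log2 change 1.19 ± 0.12 (SE), FDR = 4.62e-06). *Peg3* (0.81 ± 0.09, FDR = 1.88e-06), *Ndn* (0.57 ± 0.10, FDR = 2.13e-04) and *Meg3* (0.41 ± 0.08, FDR = 4.46e-04) rose by less. *H19* was again under the limit on low genes and was called without it, lower at P5 (-1.40, FDR = 1.03e-04). *Mirg* did not pass (-0.05 ± 0.12, FDR = 0.714), while *Meg3* did. The ratio of *Mirg* to *Meg3* UMIs, times 100, was 0.626 ± 0.0666 at E14.5, 0.371 ± 0.0503 at E18.5 (SD, n = 3 each) and 0.267 ± 0.00815 at P5 (SD, n = 2).

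**Figure D4:**
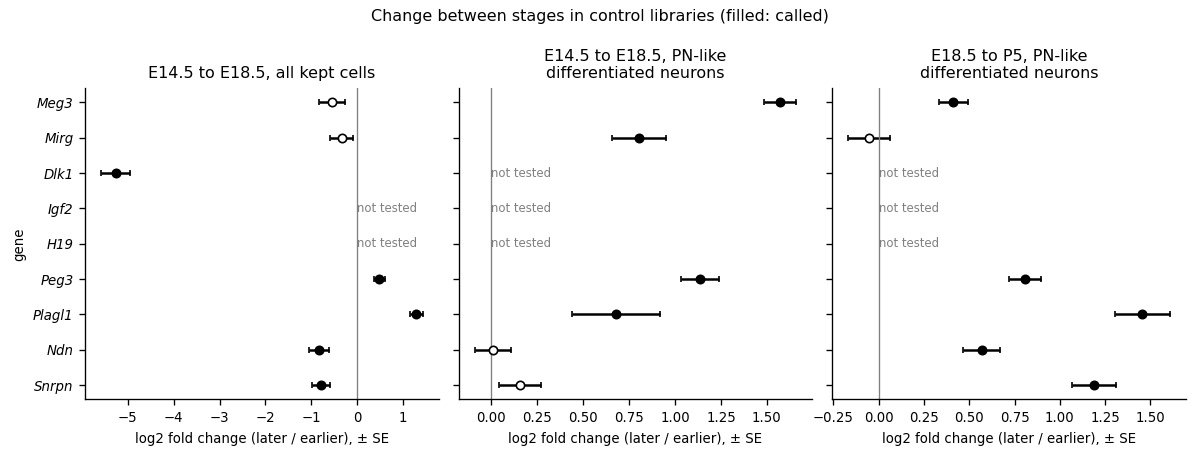
Log2 fold change of each member between stages in control libraries (later over earlier, with bars of 1 SE) in all kept cells and in PN-like differentiated neurons, filled where called and open where not. In PN-like differentiated neurons Meg3 lies at 1.57 for the first step and 0.41 for the second, and Plagl1 at 0.68 and 1.45.

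Between the genotypes, *Plagl1* was the only member called in any of the 14 comparisons fitted without pairing. Embryos of the same replicate number are littermates, so a fit that takes them as pairs follows the design. Log2 changes and FDRs given without pairs leave this out. At E14.5, control libraries 1 and 2 were counted with another Cell Ranger version than the Atoh1S193A/- libraries. Taking pairs does not remove this, and in pairs 1 and 2 it cannot be told apart from genotype. With embryos of the same replicate number taken as pairs, 5 members were called over all kept cells at E14.5, 3 in PN progenitor-like cells, and 1 each over all kept cells at E18.5, in cycling and in *Mapt*-low *Pax6*+ Hoxb-low cells. The same fits called 1827 of 10240, 105 of 10097, 37 of 9883, 141 of 9925 and 244 of 9519 genes, in this order. In *Mapt*-low *Pax6*+ Hoxb-low cells at E18.5 *Plagl1* was 121, 122 and 121 normalized CPM in control and 89.8, 92.0 and 86.1 in Atoh1S193A/- libraries (log2 change -0.44 ± 0.05 (SE), FDR = 0.00575), that is 0.737 times the control level. The 2 groups did not overlap, which held for 11.8% of all genes in that class, and 1 of 5 members tested was called there, where 0.62% of all genes were. The call stood in each of 11 alternatives, with an FDR of at most 0.0442. In that class the dividing-progenitor markers were 1712, 1874 and 1726 CPM in control and 2122, 1979.9 and 2149 CPM in Atoh1S193A/- libraries, and their part in the difference was not tested.

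In cycling *Pax6*+ Hoxb-low cells at E18.5, *Plagl1* was 105, 128 and 105 against 92.4, 86.2 and 83.3 normalized CPM, without overlap (as for 10.9% of genes) but short of the threshold (log2 change -0.37 ± 0.08 (SE), FDR = 0.181), and 0 of 5 members were called against 0.373% of all genes. DESeq2, the fit without a filter on low genes and the replicate block, which takes embryos with the same replicate number as pairs, called it (FDR = 0.0475 with the block). In PN progenitor-like cells at E14.5 the difference was larger, at 37.2, 28.7 and 37.6 against 14.6, 11.8 and 16.0 normalized CPM (log2 change -1.27 ± 0.19 (SE), FDR = 0.0835), and it also missed the threshold. The groups did not overlap there, as for 8.81% of all genes, and 0 of 5 members were called against 0.0099%, while 2 had an unadjusted p under 0.05. With the replicate block, which called 105 of 10097 genes there, 3 members were called in that state, *Plagl1* (-1.29, FDR = 4.78e-05), *Meg3* (-0.40, FDR = 0.0255) and *Peg3* (0.38, FDR = 0.0411), and DESeq2 called 1 member. *Plagl1* passed in 5 of 12 alternatives, the fit without E14.5 Atoh1S193A/- replicate 2 among them (FDR = 0.0322).

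The PN progenitor-like class was not the same size in the genotypes, with 70, 117 and 85 cells in control and 358, 316 and 516 in Atoh1S193A/- libraries 1, 2 and 3. The summed migrating neuron-1 markers were 625, 785 and 632 CPM in control and 427, 467 and 421 CPM in Atoh1S193A/- progenitor-like cells, lower in all 3, and the PN progenitor markers 13216, 11428 and 13865 against 14565, 11726 and 12977 CPM. The migrating neuron-1 markers thus moved with *Plagl1*, and their part in the difference was not tested. In intermediate progenitor-like cells *Plagl1* was 67.5, 95.5 and 50.2 against 39.6, 27.3 and 48.8 normalized CPM, again without overlap, as for 10.1% of genes (log2 change -0.70 ± 0.23 (SE), FDR = 0.730), with 0 of 5 members called against 0.0331% of genes. Under the alternatives other than leaving out each library, this log2 change ranged from -0.76 to -0.30.

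**Figure D5:**
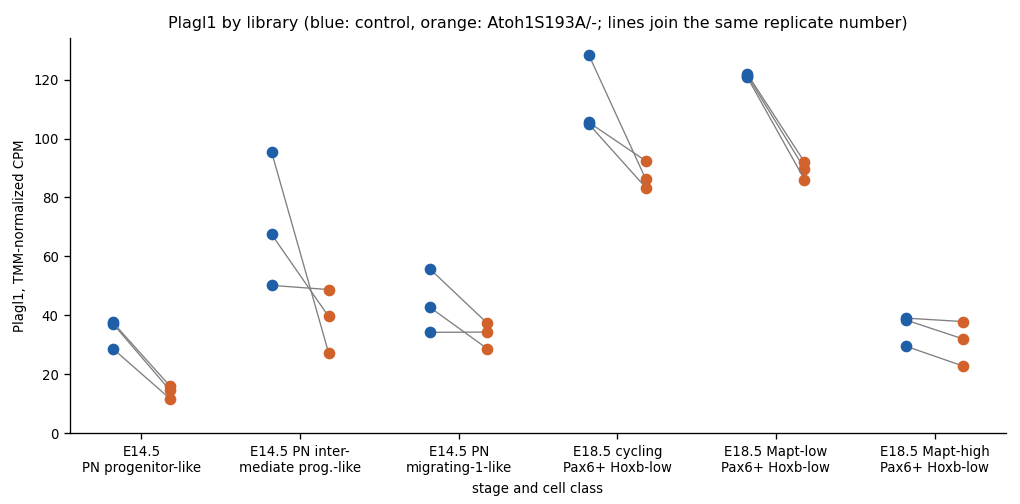
Plagl1 (normalized CPM, axis from 0) in control (blue) and Atoh1S193A/- (orange) libraries of 6 classes, with 1 point per library and lines joining the same replicate number. In Mapt-low Pax6+ Hoxb-low cells at E18.5 the means are 121 in control and 89.3 in Atoh1S193A/- libraries, and in PN progenitor-like cells at E14.5 34.5 and 14.1.

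For *Meg3* the libraries of the groups did not overlap in 4 comparisons, and it was called in none of them. In PN migrating neuron-1-like cells at E14.5 it was 105, 254 and 124 against 82.9, 91.9 and 84.4 normalized CPM (log2 change -0.90 ± 0.39 (SE), FDR = 0.953), and the size rests on control replicate 2, without which the log2 change was -0.40. At E18.5 it was higher in Atoh1S193A/- libraries of 3 classes. It was 156, 128 and 136 against 408, 180.3 and 219.6 normalized CPM in *Mapt*-low (log2 change 0.95 ± 0.36 (SE), FDR = 0.766; 0.51 without Atoh1S193A/- replicate 1) and 154, 133 and 151 against 295, 166 and 221 in cycling *Pax6*+ Hoxb-low cells (log2 change 0.64 ± 0.22 (SE), FDR = 0.752; 0.40 without Atoh1S193A/- replicate 1). In PN-like differentiated neurons it was 5577, 5298 and 5723 against 5983, 6186 and 6792 (log2 change 0.19 ± 0.06 (SE), FDR = 0.561), where 0 of 6 members were called against 0.1% of genes. ePN1-like neurons, which had less *Meg3* than ePN2-like and ePN3-like neurons, were 64 of 271, 75 of 357 and 168 of 714 cells of that class in control and 31 of 428, 16 of 218 and 42 of 549 in Atoh1S193A/- libraries, and their part in this value was not tested. Libraries that do not overlap were found for 10.8% of all genes in the last class and 10.8% in migrating neuron-1-like cells, where those of *Peg3* did not overlap either (-0.35 ± 0.17, FDR = 0.945).

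Over all kept cells, edgeR without pairs called 0 of 7 members at E14.5, none of them with an unadjusted p under 0.05, against 0.00977% of genes, and DESeq2 called 0. The log2 change of *Meg3* was -0.42 ± 0.23, FDR = 0.513, and it was -0.16 without control replicate 2, and that of *Snrpn* was -0.48 ± 0.20, FDR = 0.428. With the replicate block, which called 1827 of 10240 genes, 5 members were called, *Meg3* (-0.39), *Mirg* (-0.33), *Ndn* (-0.31), *Snrpn* (-0.48) and *Peg3* (0.25). Other neurons, which hold most *Meg3* UMIs, were 46.0 ± 15.6% of control and 36.8 ± 17.4% of Atoh1S193A/- cells (SD, n = 3 each), and their part in these values was not tested. Of the classes with most *Peg3*, dorsal rhombic lip-like cells were 3.89 ± 0.479% of control and 9.46 ± 1.45% of Atoh1S193A/- cells. Choroid plexus-like cells were 0.751 ± 0.161% and 2.90 ± 2.32%, and vascular or meningeal-like cells 0.330 ± 0.0757% and 0.215 ± 0.142%. The part of these classes was not tested either. At E18.5, 0 of 6 members were called over all kept cells against 0% of genes, with none at an unadjusted p under 0.05 and none by DESeq2. With the block, which called 37 of 9883 genes, 1 member was called, *Plagl1* (-0.35, FDR = 0.0207). The difference between the genotype effects at the 2 stages was called for 0 of 7 members in edgeR, none at an unadjusted p under 0.05, where 0% of genes were called, with -0.58 ± 0.27 for *Plagl1* (FDR = 0.668).

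The other comparisons gave no call of a member. In PN migrating neuron-1-like, migrating neuron-2-like and differentiated neuron-like cells at E14.5, 0 of 5, 0 of 6 and 0 of 5 members were called against 0.0854%, 0% and 0% of genes. At E18.5 it was 0 of 6, 5, 6 and 6 in *Mapt*-high *Pax6*+ Hoxb-low, unipolar brush cell-like, glia-like and other neurons, against 0%, 0.0225%, 0% and 0% of genes. Of the members tested in these 7 comparisons, 1 had an unadjusted p under 0.05, *Plagl1* in migrating neuron-1-like cells (-0.40 ± 0.17, FDR = 0.916; -0.19 without control replicate 2), and DESeq2 called none. *Mirg* in other neurons at E18.5 was 18.6, 21.5 and 22.7 against 25.4, 30.9 and 23.8 normalized CPM without overlap, as for 8.19% of genes, and did not pass (0.29 ± 0.19, FDR = 1.000).

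Beyond the members, a wider list of 56 imprinted genes, the 10 members included, had 52 rows. *Zfp264*, *Snhg14* and *Peg13* matched no row, like *Rian*. By genotype, *Cdkn1c*, a maternally expressed inhibitor of the cell cycle, was lower in Atoh1S193A/- PN-like differentiated neurons at E18.5 (-0.59 ± 0.07, FDR = 0.00595 on the log2 scale, 1 of 36 list genes called against 0.1% of all genes). The 9 markers of ePN1-like neurons summed to 1870.3, 1486 and 1686 CPM in control and 1238, 1265 and 1279 CPM in Atoh1S193A/- libraries of that class, without overlap, and their part in the *Cdkn1c* difference was not tested. *Kcnk9*, a maternally expressed potassium channel, was lower in cycling (-0.74 ± 0.08, FDR = 0.00500, 1 of 33 against 0.373%) and *Mapt*-low *Pax6*+ Hoxb-low cells at E18.5 (-0.90 ± 0.07, FDR = 2.98e-04, with *Plagl1* 2 of 32 against 0.62%). No gene of the list was called in the other 11 genotype comparisons. Between E14.5 and E18.5 in all control cells, 22 of 36 list genes were called, 4 up and 18 down, where 51.5% of all genes were called and 26.4% upward, with a median log2 change of -0.35 against 0.01 over all genes. After the member *Dlk1*, *Cdkn1c* (-2.81), *Peg10* (-2.27), *Magel2* (-1.70), *Blcap* (-1.02) and *Mkrn3* (-0.95) had the largest falls there, and *Kcnk9* (1.79) rose.

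In PN-like differentiated neurons the list had 26 of 36 called, 17 up and 9 down, from E14.5 to E18.5, and 23 of 36, 16 up and 7 down, from E18.5 to P5. Over all genes 56.4% and 61.9% were called, 28.8% and 30.9% upward. The list had medians of 0.19 and 0.11 against 0.01 and -0.02 over all genes. *Zim1*, the neighbor of *Peg3*, rose by 3.52, *Rasgrf1*, an exchange factor for Ras, by 3.05, *Zdbf2* by 1.82 and *Ppp1r9a* by 1.50 on the log2 scale at the first step. *Nnat*, a small membrane protein of young neurons, fell by 1.30 and *Zrsr1* by 1.45. At the second step *Nap1l5* rose by 1.69, *Cd81* by 1.24, *Impact* by 1.17 and *Inpp5f* by 1.03, and *Cdkn1c* fell by 1.42 and *Copg2* by 0.92.

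Genes whose profiles over the 47 control classes were most like a member's included a gene of the same imprinted domain for *Meg3*, *Mirg* and *Ndn*. For *Mirg* they were *B830012L14Rik* (0.969), *Gm26945* (0.964) and *Meg3* (0.921) among 8994 genes with at least 50 CPM in a class (Pearson correlation). For *Meg3* they were *Snhg11* (0.943), which lies on another chromosome, *B830012L14Rik* (0.941) and *Gm26945* (0.936). For *Ndn* they were *Snap47* (0.975), *Serp2* (0.951) and *Snrpn* (0.949), and for *Snrpn* they were *Serp2* (0.977), *Rnf14* (0.967) and *Vamp2* (0.965). *Igf2* was closest to *Fmod* (0.987), *Ifitm1* (0.978), which lies on the same chromosome, and *Slc6a13* (0.973), and *H19* to *Pdgfrl* (0.875) and *Ifitm1* (0.874). The likeness was weaker for *Dlk1*, whose like genes included *Scube1* (0.797) and *Zfhx3* (0.792), and for *Peg3*, with *Stx3* (0.819), *Zfp704* (0.81) and *Cers4* (0.79). *Plagl1* had the weakest, with *Grb10* (0.706), itself an imprinted gene, *Wdr77* (0.69) and *Katnal2* (0.656). All classes of a stage come from the same libraries, and depth differs between classes. The 47 classes include the low-UMI unnamed class of each stage. *Gm26945* passed the limit of 50 CPM only through that class, at 57.0 CPM at E14.5 and 95.2 CPM at E18.5. In any other class its control mean was at most 9.75 CPM. Its place beside *Meg3* and *Mirg* thus depends on those barcodes. *Mirg* was 231 and 300.1 CPM in the E14.5 low-UMI cluster of control libraries 1 and 3. In control PN differentiated neuron-like cells at E14.5 it had a mean of 10.9 normalized CPM. Whether *Mirg* or *B830012L14Rik* passed the limit without those barcodes was not tested. The likeness of any of these genes without them was not tested either.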

How the data were processed

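Single-cell libraries were prepared with 10x 3' chemistry from sorted TdTomato-positive cells. The authors used an mm10 reference to which WPRE had been added, and deposited for each library UMI counts (whole numbers, not normalized) of barcodes called as cells by Cell Ranger 5.0.1. Per the file headers, E14.5 control libraries 1 and 2 came from version 3.1.0 instead. All other libraries came from 5.0.1, so that version runs partly with genotype at E14.5 and with stage in controls. Depth was 108239001 to 236964126 UMIs per library. Floors (3 counts per library) cover counting error only. The value after ± is the SD over libraries for levels, shares and ratios, and the SE of the fit for log2 changes.

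Of 150188 barcodes, those with at least 1000 genes and under 5% mitochondrial UMIs were kept (86757), and the 7.5% with the highest Scrublet scores in each library were left out as presumed doublets (6507), which left 80250. Each stage was clustered separately in scanpy 1.11.5 (2000 variable genes, 30 principal components, 15 neighbours, Leiden resolution 1.0), without the members, the wider imprinted list, sex-linked markers, mitochondrial genes or WPRE. Clusters were named from marker lists, most of them chosen by the study on these samples, and the thresholds for classes were set after cluster means had been seen. Clusters with far fewer UMIs per cell than the rest of their sample stayed unnamed.

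UMIs were summed per library and class (at least 10 cells) and given as CPM (per 1000000 UMIs). Groups were compared with edgeR 4.0.16 (quasi-likelihood test, TMM, Benjamini-Hochberg false discovery rate, FDR, over all genes tested) on genes detected in 10% or more of cells in either group. Calls required FDR < 0.05 together with a log2 change beyond 0.25 in size. Values called normalized CPM are TMM-scaled. The alternatives were DESeq2 1.42.0, RLE size factors, no filter on low genes, leaving out each library, the replicate block, clustering resolution 2.0, a mitochondrial limit of 10%, no doublet removal and the libraries of Cell Ranger 5.0.1 alone, which leaves 1 control library at E14.5, assumed to vary like the others. For the interaction of genotype and stage they were chosen after seeing the data. Same-numbered control and Atoh1S193A/- embryos are littermates, and deviations from the group means correlated within each such pair (Pearson r from 0.470 to 0.766 over genes), so the numbers pair the samples. No source says that the 2 P5 libraries came from separate litters.

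The members and lists were chosen with earlier results of these data known. Of the wider list, called genes whose libraries do not overlap are named, at most 6 per comparison by size of change, and for each member the 3 genes of highest Pearson correlation over control classes, of which some are not reported here. Positions come from GENCODE M21 and sequences from RefSeq (GRCm38.p6). The fits were tested on simulated data.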

Additional observations from a re-analysis of the deposited data

How the results depend on the processing

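No value changed sign past its threshold under any alternative. With the replicate block, members called by genotype went from 0 to 5 over all kept cells at E14.5, from 0 to 1 over all kept cells at E18.5, from 0 to 3 in PN progenitor-like cells and from 0 to 1 in cycling *Pax6*+ Hoxb-low cells, and no other count of members called changed with it. In PN progenitor-like cells the count was also 1 with DESeq2, with no filter on low genes and at clustering resolution 2.0, and in cycling cells 1 with DESeq2 and with no filter. Leaving out a library gave 0 to 1 in PN progenitor-like cells, the 1 without E14.5 Atoh1S193A/- replicate 2. The cause was not tested. Over all genes, the calls by genotype as reported, with the range over all alternatives, were 1 (0 to 1827) for all kept cells, E14.5, 0 (0 to 37) for all kept cells, E18.5, 1 (1 to 105) for PN progenitor-like, E14.5, 3 (2 to 89) for PN intermediate progenitor-like, E14.5, 8 (0 to 200) for PN migrating neuron-1-like, E14.5, 0 (0 to 18) for PN migrating neuron-2-like, E14.5, 0 (0 to 1) for PN differentiated neuron-like, E14.5, 10 (4 to 98) for PN-like differentiated neurons, E18.5, 37 (14 to 141) for cycling cells, E18.5, 59 (26 to 266) for *Mapt*-low cells, E18.5, 0 (0 to 23) for *Mapt*-high cells, E18.5, 2 (0 to 73) for unipolar brush cell-like, E18.5, 0 (0 to 10) for glia-like, E18.5, 0 (0 to 7) for other neurons, E18.5, 0 (0 to 74) for the interaction. Of 657 log2 changes of members with a library left out, 36 moved by more than 1 SE, 5 lost their call and 2 gained one, and of 545 under the other alternatives 14 moved, 1 lost its call and 16 gained one. Moves past 1 SE were counted only where neither fit made a call. Shifts of that size in changes called by both fits are not among them. With cells thinned to 3000 UMIs, mean levels in PN-like differentiated neurons moved by more than 1 SD for *H19* at E18.5 (4.03 CPM) and P5 (0.812 CPM), *Plagl1* at E14.5 (6.54 CPM), E18.5 (6.72 CPM) and P5 (21.2 CPM), and *Mirg* (12.3 CPM) and *Ndn* (489 CPM) at E14.5, and for *Peg3* in PN progenitor-like cells (134 CPM). As a mean of per-cell CPM at P5, *H19* was 0.861 and *Plagl1* 21.9 CPM. *Dlk1*, *Igf2* and *H19* fell under the limit on low genes in most classes. Without that limit, members called in PN-like differentiated neurons went from 4 to 6 (*Dlk1* and *H19* added) between E14.5 and E18.5 and from 5 to 6 (*H19* added) between E18.5 and P5. *Dlk1* could not be tested over all cells without E14.5 control replicate 2 or with the Cell Ranger 5.0.1 libraries alone.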

Other observations

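*Kcnq1ot1*, an imprinted long noncoding RNA that is read antisense to Kcnq1 and was not among the members, was also high in the clusters with the fewest UMIs per cell. In the E14.5 low-UMI cluster it was 3034 and 2452 CPM in control replicates 1 and 3, against 308 ± 65.4 CPM in PN differentiated neuron-like cells (SD, n = 3). At P5 it was 2791 and 3111 CPM in the shallower low-UMI cluster, 457 and 296 CPM in the other and 303 ± 8.39 CPM in PN-like differentiated neurons (SD, n = 2). *Gm26906*, a noncoding RNA antisense to the end of *Meg3*, was higher at each later stage in PN neurons, from 0.780 ± 0.182 CPM at E14.5 to 1.93 ± 0.403 CPM at E18.5 (SD, n = 3 each) and 7.58 ± 2.68 CPM at P5 (SD, n = 2). These genes were chosen after their values were seen.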
